A study of Gallus gallus with 10 samples.

Results

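Voltage-gated and potassium channel genes were followed in the optic cup of the chicken embryo after removal of the lens. The set holds every gene whose symbol starts with KCN, CACNA, CACNB or CACNG or is SCN with a number and the letter A or B, without regard to level. It has 71 of the 12464 genes listed: 49 potassium, 18 calcium and 4 sodium channel genes. The eggs were of the Dekalb white strain and the embryos wild type, with no transgene in any group. At Hamburger and Hamilton stage 23, about embryonic day 4, the lens of 1 eye was pulled out with forceps through a slit in the dorsal eyeball, and both retinas were collected singly 6 h later. The 5 operated retinas (lens removed) are each paired with the unoperated retina of the same embryo (control), in 5 embryos. The operated eye had been opened as well as deprived of its lens, which the design does not separate, and the control eye belonged to an embryo that had been through the operation.

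Voltage-gated channels open when the membrane potential changes and let potassium, calcium or sodium ions through; other potassium channels leak at rest, rectify, or open with calcium inside the cell. Their pore subunits are joined by auxiliary subunits that set surface delivery and gating. At this stage most cells of the retina are dividing progenitors, and the first neurons to leave the cycle are ganglion cells, which come to fire action potentials as they mature.

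Normalised read counts had column totals of 979286 to 1033235 per library, and each library rested on an effective 18671000 to 26005000 reads, as read from the steps between low values. The libraries held optic cup transcripts, with PAX6 at 357 ± 34.2 and 272 ± 16.5 (mean ± SD, n = 5 embryos, control first). Pigment epithelium markers were lower in the operated libraries (5 of 10 genes fell; summed level 102 to 479 in control and 109 to 183 in operated retinas), as were periocular mesenchyme markers (4 of 9 fell; 67.8 to 235 and 68.1 to 98.7). Both lists were at least as high in the operated eye as in the control eye of embryo 1 only. Of 5 haemoglobin genes 0 passed by limma, with 4 at an unadjusted p under 0.05 and a summed level of 30.0 to 378 and 111 to 319. Their median log2 change was 1.35. Their sum was higher in the operated eye of 4 of 5 embryos and lower in embryo 5 (378 in control and 131 in operated). Of 16 neuron and ganglion cell markers 2 rose, GAP43 and DCX, and 14 did not pass. The list's sum was higher in 5 of 5 operated retinas (1879 to 2076.5 and 2148 to 2568). DCX made up most of that sum, at 1383 ± 68.0 and 1678 ± 182. The sum of the progenitor list was higher in 0 of 5 operated retinas (5054 to 5327 and 4423 to 5043). Most of it was FABP7, at 3471 ± 209 and 2838 ± 311. Of 11 progenitor markers 5 rose and 2 fell, of 7 endothelial markers 2 fell, and of 5 lens and surface ectoderm markers 1 rose; of 3 microglial markers 0 passed, and 0 had an unadjusted p under 0.05. No marker with values was at 0, and RPE65, TTR, BEST1 and GPR143 of the pigment list were not analysed here. Of all genes, 11.5% rose and 10.1% fell. The part of these markers in the channel results was not tested. In whole retinas, fewer cells of a type and less transcript per cell cannot be told apart.

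Lens removal was followed by more channel transcripts going up than down. At 6 h 17 of the 71 genes were higher in the operated retina, 4 were lower and 50 did not pass. Among all genes tested 21.6% were called, against 29.6% of the channel genes; 11.5% of all genes and 23.9% of channel genes were higher, and 10.1% and 5.63% were lower. The median log2 change of the channel genes was 0.13, and that of all genes 0.017. The balance of directions varied with the level of a gene, and most channel genes were low. Among the 48 channel genes with a mean under 10, 11 were higher and 2 lower, or 22.9% and 4.17%, against 13.9% and 4.69% of all genes at that level (18.6% called in all). Among the 23 with a mean of at least 10, 6 were higher and 2 lower, or 26.1% and 8.696%, against 10.6% and 12.2% of all genes at that level (22.7% called in all). No list was tested as a whole. The changes are estimates within embryos on the log2(value + 1) scale, tested with limma and adjusted over all 12464 genes.

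The direction held in 5 of 5 embryos for 25 channel genes (35.2%), of which 18 were higher and 7 lower; the same was true of 30.8% of all genes (16.3% higher and 14.6% lower). For 13 channel genes (18.3%, against 12.7% of all genes) the ranges of the control and operated groups did not overlap. These were CACNA1E, CACNA2D1, CACNB2, CACNG4, KCNA2, KCNB2, KCNC2, KCND2, KCNH4, KCNH6, KCNK5 and KCNN2, which all passed, and KCNJ5, which did not. KCNH4, counted here and among the 17 higher genes, was listed only through its operated values, as described below. The count depended on which embryos were included. Leaving out an embryo also lowers the number of pairs, and the part of each was not tested. Without embryo 4, 6 channel genes were higher and 0 lower, and without embryo 2, 8 and 0 (all genes 635 and 393, and 705 and 463). At an unadjusted p under 0.05, limma gave 19 higher and 8 lower channel genes without embryo 4 and 20 and 6 without embryo 2. With all embryos it gave 23 higher and 7 lower, or 30 of 71, against 4485 of all 12464 genes.

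**Figure D1:**
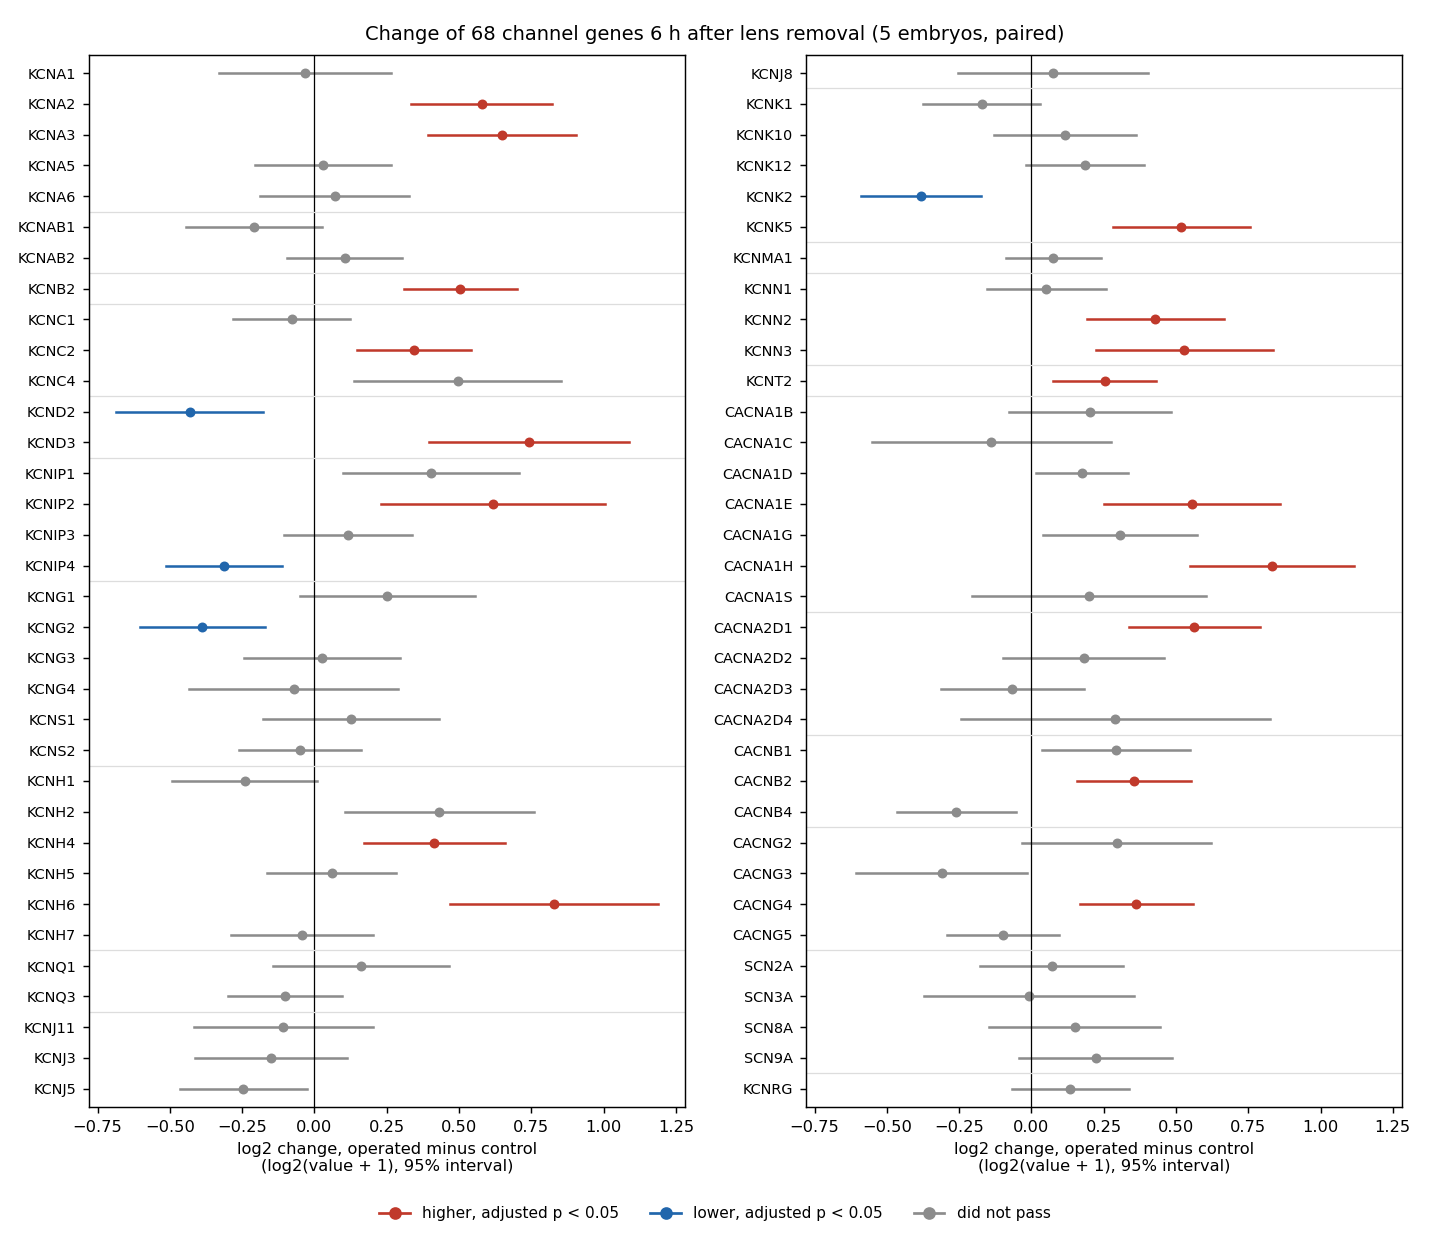
Log2 change (operated minus control, on the log2(value + 1) scale) of 68 of the 71 channel genes as a point with its 95% interval, grouped by family between the pale lines; red marks genes called higher, blue genes called lower and grey those that did not pass. The 17 red and 4 blue points range from -0.43 for KCND2 to 0.83 for CACNA1H.

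Calcium channels are described first. Each is built on a pore, the alpha 1 subunit, and RefSeq names 8 such genes for the chicken by these symbols, of which 7 were listed. Of the 7, 2 rose and 5 did not pass. CACNA1H, which encodes a T-type channel that opens at low voltage, was at 5.36, 3.999, 4.29, 3.82 and 7.59 in the control retinas of embryos 1 to 5 and at 7.17, 8.31, 9.24, 10.3 and 13.1 in the operated retinas. Every embryo had more in the operated eye, and only the control value of embryo 5 reached into the operated range (log2 change 0.83, SE 0.13, adjusted p = 0.0025). Its operated mean was 1.92 times the control mean. CACNA1E, the pore of R-type channels, was at 20.2, 16.4, 10.4, 15.3 and 19.5 in control and 21.6, 29.1, 22.4, 24.6 and 22.6 in operated retinas. The groups did not overlap, but embryos 1 and 5 moved little (log2 change 0.55, SE 0.14, adjusted p = 0.019). Its call was lost without embryo 2 (adjusted p = 0.081) and without embryo 4 (0.088).

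The other calcium channel pores did not pass. CACNA1G, the other T-type pore listed, was at 21.3 ± 5.33 and 26.4 ± 4.85 (log2 change 0.31, 95% interval 0.04 to 0.57, adjusted p = 0.096), higher in 4 of 5 embryos. CACNA1D, an L-type pore, was at 47.4 ± 4.53 and 53.7 ± 5.95 (log2 change 0.17, adjusted p = 0.11), and CACNA1B, the N-type pore of many synapses, at 12.3 ± 1.42 and 14.5 ± 2.83 (adjusted p = 0.27). CACNA1C, the L-type pore of heart and smooth muscle, was low at 2.22 ± 0.901 and 1.87 ± 0.472 (adjusted p = 0.62), and so was CACNA1S, the pore known from skeletal muscle, at 1.17 ± 0.256 and 1.55 ± 0.603 (adjusted p = 0.46). The embryos disagreed for CACNA1C, which was higher in 3 and lower in 2, with changes from -0.80 to 0.45. Its 95% interval ran from -0.55 to 0.27, which leaves its direction undecided.

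Of the calcium channel auxiliary subunits, CACNA2D1, CACNB2 and CACNG4 rose and the others did not pass. Under quantile normalisation CACNB2 and CACNG4 lost their calls (limma, adjusted p = 0.065 and 0.078), and CACNB4 was called lower (0.021). Of the 4 alpha 2 delta genes, which help bring pores to the surface, 1 rose and 3 did not pass. CACNA2D1 was at 20.1, 26.1, 25.6, 27.9 and 19.6 in control and 28.5, 36.5, 29.9, 51.7 and 34.5 in operated retinas. Each operated value was above each control value, and embryo 4 stood highest (log2 change 0.56, SE 0.10, adjusted p = 0.0052). CACNA2D2 was at 28.02 ± 5.76 and 31.7 ± 4.56 (adjusted p = 0.32) and CACNA2D3 at 1.02 ± 0.201 and 0.936 ± 0.239 (adjusted p = 0.7). CACNA2D4 was uneven between embryos, at 1.27, 3.38, 3.53, 1.67 and 5.03 in control and 3.71, 2.42, 4.49, 0.804 and 11.4 in operated retinas. It was higher in 3 of 5 embryos, with the highest operated value in embryo 5 and the lowest in embryo 4 (adjusted p = 0.41).

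Of the 3 beta genes, which encode the cytoplasmic subunits of calcium channels, 1 rose and 2 did not pass. CACNB2 was at 9.16, 8.08, 6.77, 9.18 and 8.01 in control and 11.9, 10.9, 9.91, 11.9 and 9.37 in operated retinas, with no overlap between the groups (log2 change 0.35, SE 0.09, adjusted p = 0.021). It did not pass without embryo 2, 3 or 4 (adjusted p = 0.086, 0.067 and 0.086). CACNB1 was higher in 4 of 5 embryos at 8.36 ± 1.17 and 10.4 ± 1.15 (log2 change 0.29, adjusted p = 0.095). CACNB4 was the only calcium channel gene lower in 5 of 5 embryos, at 7.48 ± 0.601 and 6.098 ± 0.718 (log2 change -0.26), and it did not pass (adjusted p = 0.071). Of the 4 gamma genes listed 1 rose and 3 did not pass. The products of CACNG2, CACNG3, CACNG4 and CACNG5 are known mainly as escorts of AMPA-type glutamate receptors. CACNG4 was at 12.7, 12.6, 13.2, 12.8 and 14.4 in control and 18.1, 18.2, 15.03, 15.2 and 19.8 in operated retinas, again without overlap (log2 change 0.36, SE 0.09, adjusted p = 0.018); without embryo 2 or 4 the adjusted p was 0.087 and 0.055. CACNG3 was at 51.5, 47.9, 64.6, 62.6 and 65.8 and 33.98, 54.8, 50.9, 35.2 and 65.3. It was lower in 4 of 5 embryos and most so in embryos 1 and 4, and did not pass (log2 change -0.31, adjusted p = 0.12). CACNG5, from which CACNG4 is separated by 1 protein-coding gene in the RefSeq gene order, was at 18.8 ± 1.998 and 17.6 ± 2.79 (adjusted p = 0.44), and CACNG2 at 1.16 ± 0.388 and 1.63 ± 0.276 (adjusted p = 0.18).

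**Figure D2:**
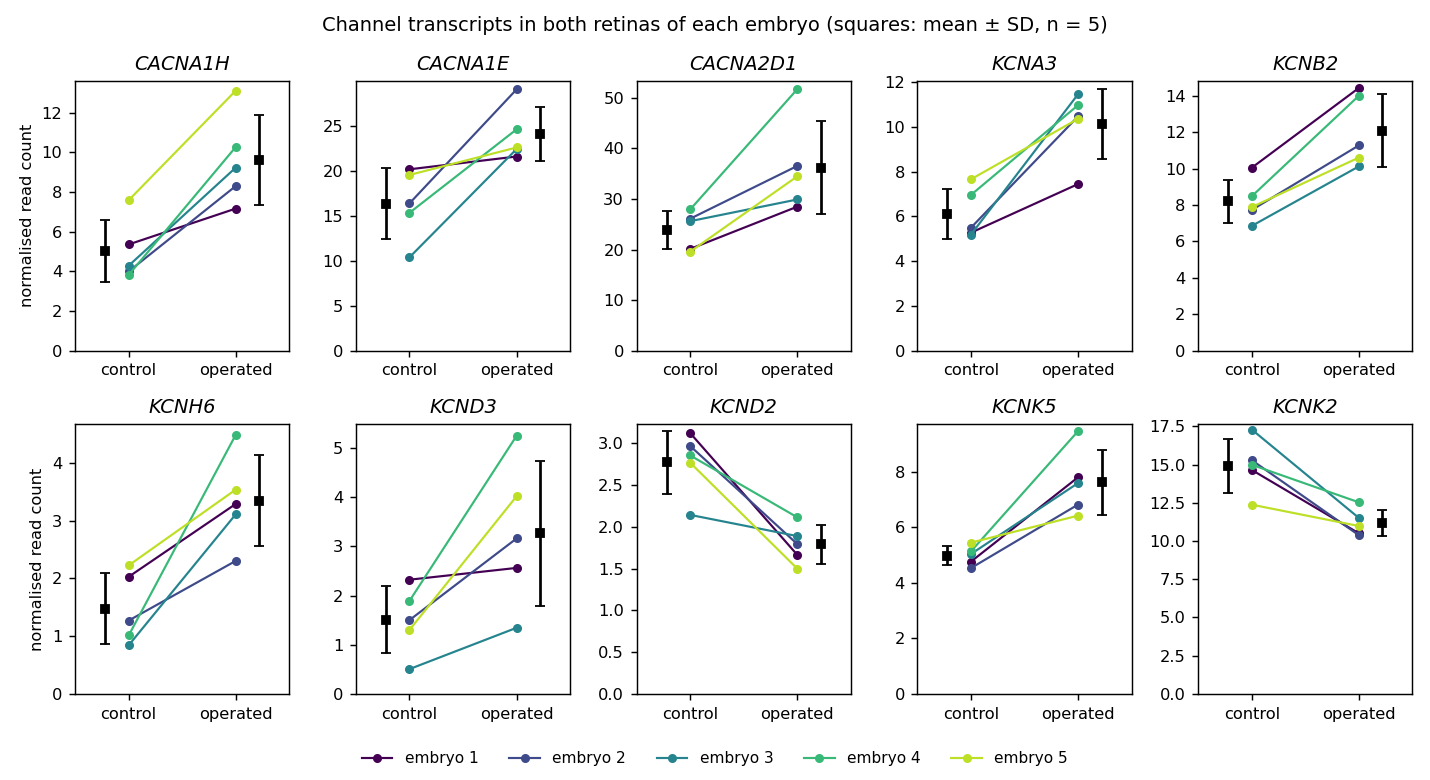
Normalised read counts of 10 channel genes in the control and operated retina of each embryo, with a line joining the eyes of an embryo and black squares for the group mean ± SD (n = 5). All 5 lines rise for CACNA1H, CACNA1E, CACNA2D1, KCNA3, KCNB2, KCNH6, KCND3 and KCNK5 and fall for KCND2 and KCNK2; the vertical axes differ between panels.

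Voltage-gated potassium pores of the Kv1 to Kv4 families repolarise the membrane. Of 5 Kv1 genes 2 rose and 3 did not pass. KCNA2 was at 3.86, 3.999, 2.92, 2.76 and 4.28 in control and 5.12, 5.88, 5.67, 5.67 and 6.48 in operated retinas, with no overlap (log2 change 0.58, SE 0.11, adjusted p = 0.0065). KCNA3, also known as the main Kv1 channel of T lymphocytes, was at 5.28, 5.499, 5.19, 6.96 and 7.66 and 7.45, 10.5, 11.5, 10.98 and 10.4. All embryos moved up, and embryo 1 remained below the control value of embryo 5 (log2 change 0.65, SE 0.11, adjusted p = 0.0048). Of the 10 values of each gene, 3 of KCNA3 and 6 of KCNA2 were whole numbers of reads; part of their reads was counted in fractions, and how the reads divide between genes is uncertain. The remaining Kv1 genes, KCNA1 (1.03 ± 0.309 and 0.965 ± 0.143), KCNA5 (3.06 ± 0.342 and 3.16 ± 0.465) and KCNA6 (2.54 ± 0.234 and 2.77 ± 0.772), had adjusted p of 0.88, 0.86 and 0.69. In the RefSeq gene order KCNA2 and KCNA3 are adjacent protein-coding genes, and KCNA6, KCNA1 and KCNA5 form another run of adjacent genes.

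Of the Kv2 genes KCNB2 rose. It was at 10.05, 7.73, 6.85, 8.48 and 7.89 in control and 14.4, 11.3, 10.1, 14.0004 and 10.6 in operated retinas. The change ran from 0.38 in embryo 5 to 0.66 in embryo 4, and the groups did not overlap (log2 change 0.50, SE 0.09, adjusted p = 0.0044). Of 3 Kv3 genes, which allow fast firing, 1 rose and 2 did not pass. KCNC2 was at 11.4, 9.73, 9.04, 10.3 and 11.2 in control and 12.8, 14.1, 12.01, 13.1 and 14.9 in operated retinas. All 5 operated values were above the controls, those of embryos 1 and 3 narrowly (log2 change 0.34, SE 0.09, adjusted p = 0.022). The call was lost without embryo 2, 3 or 4 (adjusted p = 0.1, 0.057 and 0.086). KCNC1 was at 16.98 ± 3.51 and 15.9 ± 2.05 (adjusted p = 0.56). KCNC4 was higher in 4 of 5 embryos at 1.77 ± 0.3897 and 2.92 ± 0.674 and lay just outside the threshold (log2 change 0.50, adjusted p = 0.053).

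The Kv4 genes, whose channels carry the fast inactivating A-type current, moved in opposite directions. KCND3 was at 2.32, 1.4997, 0.504, 1.89 and 1.3005 in control and 2.56, 3.16, 1.34, 5.24 and 4.02 in operated retinas. It was higher in 5 of 5 embryos, with little movement in embryo 1 and with embryo 3 lowest in both groups (log2 change 0.74, SE 0.15, adjusted p = 0.0099). KCND3 rested on 12 to 124 reads per library. The size of its change depends on the added constant, and over the alternatives it ran from 0.33 to 0.998. Its call was lost with no replicate block (adjusted p = 0.083) and without embryo 4 (0.057). KCND2 was at 3.12, 2.97, 2.14, 2.86 and 2.77 and 1.66, 1.79, 1.89, 2.11 and 1.4996, lower in each embryo and with no overlap (log2 change -0.43, SE 0.11, adjusted p = 0.026). The KCND2 call was lost without embryo 1, 2, 4 or 5 (adjusted p = 0.051, 0.095, 0.075 and 0.061). Embryo 3, with the lowest control value, moved least.

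The 4 KChIP genes encode calcium-binding partners of Kv4 pores, and among them too 1 rose and 1 fell. KCNIP2 was at 4.05, 3.77, 2.82, 1.85 and 4.24 in control and 3.33, 8.93, 5.29, 4.53 and 6.802 in operated retinas (log2 change 0.62, SE 0.17, adjusted p = 0.032). Embryo 1 went the other way, and embryo 2 had the highest operated value. KCNIP4 was at 17.7, 18.2, 19.8, 15.6 and 19.3 and 15.4, 15.02, 12.7, 12.5 and 16.4, lower in 5 of 5 embryos (log2 change -0.31, SE 0.09, adjusted p = 0.034), with an overlap between the operated retina of embryo 5 and the control of embryo 4. With no replicate block the adjusted p was 0.094 for KCNIP2 and 0.057 for KCNIP4, and both calls were also lost without embryo 2, 3, 4 or 5. KCNIP1 was higher in 5 of 5 embryos at 1.62 ± 0.418 and 2.45 ± 0.424 but did not pass (adjusted p = 0.062), and KCNIP3, which is also known as a transcriptional repressor, was at 3.63 ± 0.361 and 4.06 ± 0.817 (adjusted p = 0.43). The Kv beta genes KCNAB1 (16.6 ± 2.301 and 14.5 ± 3.72) and KCNAB2 (49.5 ± 5.95 and 52.9998 ± 2.78) did not pass (adjusted p = 0.18 and 0.43).

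Silent Kv subunits form channels only together with other pores, mainly Kv2. Of 6 listed 1 fell and 5 did not pass. KCNG2 was at 5.61, 7.54, 5.84, 6.11 and 7.38 in control and 3.63, 4.88, 4.79, 4.74 and 5.62 in operated retinas, lower in each embryo, with the operated value of embryo 5 just above the lowest control value (log2 change -0.39, SE 0.10, adjusted p = 0.02). With no replicate block it missed the threshold (adjusted p = 0.051), as it did without embryo 2 or 4 (0.094 and 0.07). KCNG1 was at 4.69 ± 1.44 and 5.79 ± 1.68, KCNG3 at 6.04 ± 0.772 and 6.198 ± 1.03 and KCNG4 at 2.17 ± 0.884 and 1.96 ± 0.5703 (adjusted p = 0.21, 0.9 and 0.78). KCNS1 was at 1.37 ± 0.439 and 1.57 ± 0.381 and KCNS2 at 3.36 ± 0.906 and 3.23 ± 0.943 (adjusted p = 0.54 and 0.73).

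Of 6 genes of the EAG, ERG and ELK channels, 2 rose and 4 did not pass. KCNH6, an ERG channel gene, was at 2.03, 1.27, 0.841, 1.01 and 2.22 in control and 3.29, 2.301, 3.11, 4.48 and 3.53 in operated retinas. The ranges met but did not overlap, at 2.22 in the control of embryo 5 and 2.301 in the operated retina of embryo 2 (log2 change 0.83, SE 0.16, adjusted p = 0.0073). At so low a level the added 1 shrinks the change: with a pseudocount of 0.25 the log2 change was 1.11, and the operated mean was 2.27 times the control mean. Over all alternatives the log2 change of KCNH6 ran from 0.37 to 1.11. KCNH4, an ELK channel gene, had the lowest mean normalised count of the called genes, at 0.591, 0.615, 0.589, 0.835 and 0.839 in control and 1.24, 1.48, 1.09, 1.18 and 1.29 in operated retinas, or 14 to 38 reads (log2 change 0.41, SE 0.11, adjusted p = 0.025). Here too the size depends on the added constant: with a pseudocount of 0.25 the log2 change was 0.68 and with 5 it was 0.14, while the operated mean was 1.81 times the control mean. Its groups did not overlap, and its call was lost without embryo 2, 3 or 4 (adjusted p = 0.11, 0.067 and 0.063). Every listed gene is above 1 in at least 5 libraries, and KCNH4 was above 1 in the 5 operated ones only. It was thus listed through its operated values alone, so its call and lack of overlap are not independent of that. KCNH2, the ERG gene known for the heartbeat, was higher in 5 of 5 embryos at 5.57 ± 1.41 and 7.72 ± 0.9597 and did not pass (log2 change 0.43, adjusted p = 0.062). The EAG genes KCNH1 (6.48 ± 0.673 and 5.39 ± 1.18) and KCNH5 (48.7 ± 7.82 and 50.5 ± 4.68) and the third ERG gene KCNH7 (5.42 ± 0.891 and 5.33 ± 1.72) had adjusted p of 0.15, 0.7 and 0.81.

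Of the 4 Kv7 genes listed 0 passed by limma, and 0 had an unadjusted p under 0.05. KCNQ3, a subunit of the M-current channels of neurons, was at 13.1 ± 1.38 and 12.2 ± 1.69 (log2 change -0.10, 95% interval -0.30 to 0.09, adjusted p = 0.43). KCNQ1, known from the heart and inner ear, was at 1.21 ± 0.227 and 1.47 ± 0.323 (log2 change 0.16, 95% interval -0.14 to 0.47, adjusted p = 0.42).

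Leak channels with a pair of pore domains hold the resting potential. Of 5 listed 1 rose and 1 fell. KCNK5, an acid- and volume-sensitive leak channel, was at 4.77, 4.54, 5.04, 5.14 and 5.45 in control and 7.81, 6.83, 7.601, 9.47 and 6.43 in operated retinas. The controls were close together and every operated value was above them (log2 change 0.52, SE 0.11, adjusted p = 0.0092); without embryo 4 the adjusted p was 0.056. KCNK2, the mechanosensitive channel TREK1, was at 14.6, 15.3, 17.3, 14.98 and 12.4 and 10.5, 10.4, 11.5, 12.5 and 10.98. It was lower in each embryo, most clearly in embryos 1 to 3, and the operated value of embryo 4 lay just above the control value of embryo 5 (log2 change -0.38, SE 0.09, adjusted p = 0.019). That call was lost without embryo 2, 3 or 4 (adjusted p = 0.088, 0.058 and 0.058). KCNK10, a relative of KCNK2, was at 1.702 ± 0.464 and 1.93 ± 0.473, KCNK1 at 10.4 ± 1.99 and 9.03 ± 1.29 and KCNK12 at 8.26 ± 1.61 and 9.54 ± 1.94 (adjusted p = 0.48, 0.2 and 0.17).

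Of the inward rectifiers, which pass potassium mainly into the cell, 4 of the 12 symbols that RefSeq gives were listed. Of these 0 passed by limma, and KCNJ5 alone had an unadjusted p under 0.05. KCNJ5, a subunit of channels opened by G proteins, was at 4.31, 3.58, 3.49, 3.82 and 3.36 in control and 3.12, 3.003, 2.898, 2.79 and 2.999 in operated retinas. It was lower in 5 of 5 embryos without overlap, but the shift was small (log2 change -0.25, SE 0.10, adjusted p = 0.1). Its partner KCNJ3 was at 1.71 ± 0.512 and 1.43 ± 0.377, and the pores of ATP-sensitive channels, KCNJ8 and KCNJ11, at 2.18 ± 0.526 and 2.33 ± 0.373 and at 1.37 ± 0.365 and 1.19 ± 0.263 (adjusted p = 0.38, 0.74 and 0.61). KCNJ10 and KCNJ13, known from glia and pigment epithelium, were not analysed here.

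Among potassium channels opened by ions inside the cell, 3 of 5 rose. The calcium-activated SK genes KCNN2 and KCNN3 were both higher in 5 of 5 embryos. KCNN2 was at 4.22, 3.85, 4.37, 4.39 and 4.405 in control and 6.06, 5.27, 4.96, 7.57 and 6.75 in operated retinas, and its groups did not overlap (log2 change 0.43, SE 0.11, adjusted p = 0.019). KCNN3 was at 7.05, 6.46, 5.21, 7.03 and 11.6 and 7.598, 10.5, 11.8, 11.5 and 13.98, where the control of embryo 5 stood within the operated range (log2 change 0.53, SE 0.14, adjusted p = 0.023). With no replicate block KCNN3 had adjusted p = 0.085; without embryo 2 or 4 neither SK gene passed, and KCNN3 did not pass without embryo 3 either. KCNT2, which encodes a sodium-activated channel, was at 25.7, 29.03, 25.4, 29.5 and 24.1 and 27.1, 34.7, 28.1, 38.2 and 32.99 (log2 change 0.25, SE 0.08, adjusted p = 0.047). This was the weakest of the calls: it passed in 4 of 13 alternatives and had adjusted p = 0.13 with no replicate block. KCNN1, the third SK gene, was at 47.5 ± 4.15 and 49.4 ± 5.51, and KCNMA1, the pore of the BK channel, at 25.8 ± 3.02 and 27.2 ± 1.74 (adjusted p = 0.72 and 0.49). KCNRG, a soluble protein known in human cells to hold back Kv1 channels, was at 8.67 ± 1.01 and 9.59 ± 0.6097 (adjusted p = 0.31).

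Sodium channel pores start the action potential. Of 4 listed, 0 passed by limma and 0 had an unadjusted p under 0.05. SCN8A was at 10.8, 8.92, 5.25, 9.798 and 13.4 in control and 12.2, 12.8, 6.68, 12.1 and 9.48 in operated retinas, and varied with the embryo: embryo 3 was lowest in both eyes (adjusted p = 0.45). SCN9A, known from sensory neurons, was at 5.67 ± 0.9298 and 6.76 ± 0.876 (log2 change 0.22, 95% interval -0.04 to 0.49). SCN2A and SCN3A, pores of embryonic and central neurons, were at 2.21 ± 0.239 and 2.41 ± 0.628 and at 2.06 ± 0.758 and 2.005 ± 0.489 (adjusted p = 0.68 and 0.98). Most values of SCN2A, SCN3A and SCN9A were not whole numbers of reads: 1, 1 and 2 of their 10 values were whole. Part of their reads was thus counted in fractions, and their separate levels are uncertain. Fractions were also present in KCNH7 and KCNH5, with 5 and 6 of 10 values whole. CACNA2D1, CACNB4, KCNIP4 and KCNK2 had 7 of 10 values whole each.

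**Figure D3:**
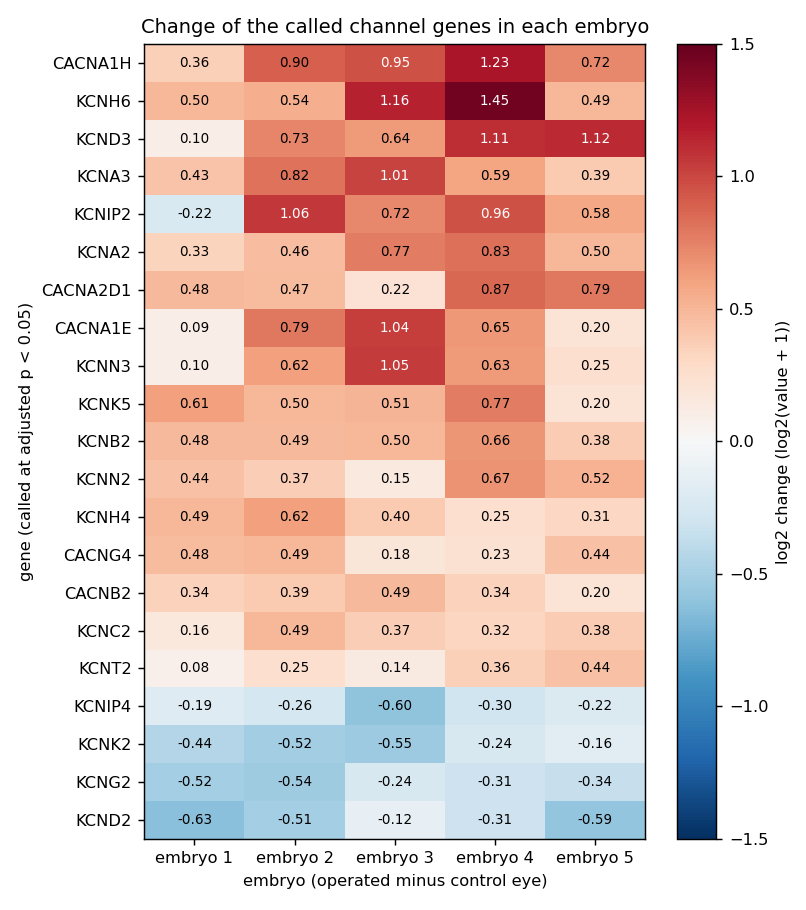
Log2 change (operated minus control eye, log2(value + 1)) of the 21 called channel genes in each of the 5 embryos, printed in each cell and shaded from blue (lower) to red (higher). All rows keep their sign across the embryos except KCNIP2, which is at -0.22 in embryo 1.

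Embryos differed in how far the set moved. The median change over the 71 genes was 0.034, 0.21, 0.14, 0.25 and -0.012 in embryos 1 to 5, and that of all genes lay between -0.0086 and 0.030. In embryos 1 to 5, 40, 49, 40, 53 and 35 of the 71 channel genes were higher in the operated eye. Of all genes 50.2%, 54.2%, 51.0%, 53.7% and 48.8% were higher in the same embryos. Over the 17 called genes that rose, the median change was 0.36, 0.499, 0.51, 0.66 and 0.44 in embryos 1 to 5. Embryo 1 had the smallest change of the 5 for 8 of them and embryo 4 the largest for 7. Summed pigment markers were at 102 and 109 in embryo 1 (control and operated), 220 and 139 in embryo 2 and 167 and 160 in embryo 3. In embryo 4 they were at 154 and 116, and in embryo 5 at 479 and 183. They differed little between the eyes of embryos 1 and 3 and most in embryo 5. Any link with the channel changes was not tested.

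Of the 21 calls, 6 passed in every alternative they were tested in: CACNA1H, CACNA2D1, KCNA2, KCNA3, KCNB2 and KCNH6. CACNA2D1 and KCNB2 were tested in 13 alternatives, and CACNA1H, KCNA2, KCNA3 and KCNH6 in 12. The filters on the mean removed these genes from the remaining alternatives. The fit that left the pairing out kept 15 of the 21. Under quantile normalisation 11 channel genes were higher and 6 lower, so that 64.7% of the calls were higher against 81.0% with the authors' scaling. Of the calls among all genes 46.2% were higher under quantile normalisation, against 53.1%. There CACNB2, CACNG4, KCNC2, KCNH4, KCNN2 and KCNT2 lost their calls and CACNB4 and KCNJ5 gained one, both lower.

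**Figure D4:**
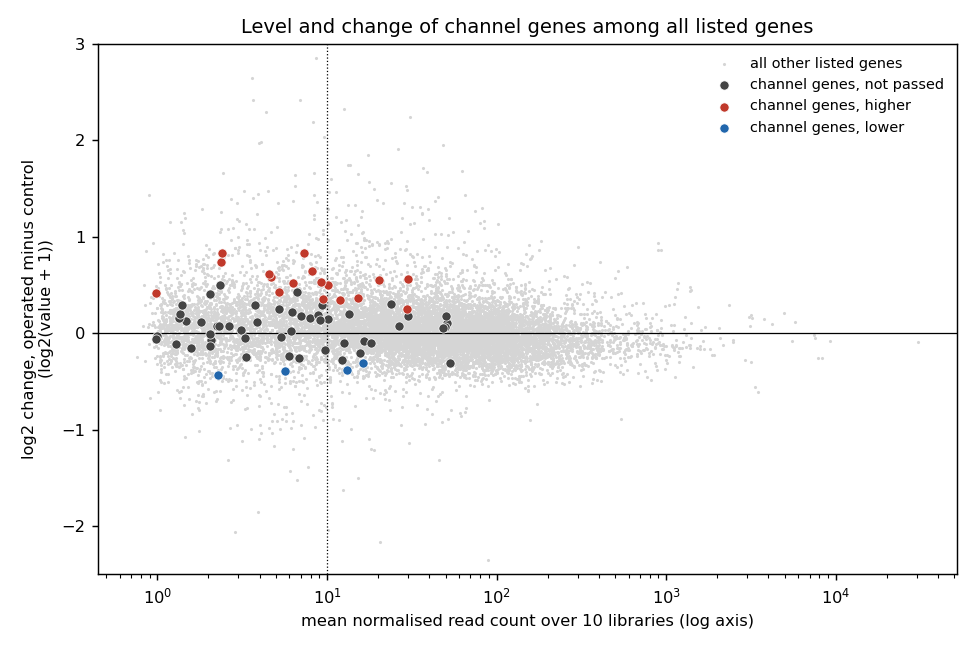
Mean normalised read count over the 10 libraries (log axis) against log2 change for all listed genes (pale grey) and the 71 channel genes (red higher, blue lower, dark grey not passed); the dotted line marks a mean of 10. The channel genes lie between means of 0.975 and 53.2, and 48 of them stand left of the line.

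Genes that work with these channels were drawn from lists that were chosen with earlier results of these data known. Of 40 listed partners and regulators 7 rose, 1 fell and 32 did not pass (median log2 change 0.022). The share called was 20%, near the 21.6% of all genes. KCTD16, counted among the 7, was above 1 in every operated retina but in the control of embryo 1 only (1.48). It was thus listed through its operated values, and its call is not independent of that. FGF13, an intracellular fibroblast growth factor homologue that binds sodium channels, was at 9.12, 7.04, 6.52, 6.85 and 8.18 in control and 21.04, 13.4, 15.3, 22.1 and 20.4 in operated retinas, far apart in each embryo (log2 change 1.17, SE 0.11, adjusted p = 0.00019). ANK2, an ankyrin that anchors channels, was higher (82.4 ± 7.53 and 111 ± 5.67; log2 change 0.43, SE 0.06, adjusted p = 0.0019), and DPP6, a Kv4 partner, was too (11.6 ± 1.36 and 17.4 ± 3.85; log2 change 0.53, SE 0.09, adjusted p = 0.0042). STAC, an adaptor known to modulate L-type calcium channels, was lower, at 49.9 ± 8.53 and 33.3 ± 6.45 (log2 change -0.58, SE 0.11, adjusted p = 0.0064). REST, the repressor of neuronal genes including channel genes, rose from 98.5 ± 5.86 to 116 ± 7.998 (log2 change 0.24, adjusted p = 0.037). It is named outside the rule, after its values were seen, while other passing partners of smaller p are not named. Any link between REST and the channel changes was not tested.

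Of 24 listed relatives of the voltage-gated superfamily 2 rose, 1 fell and 21 did not pass (median log2 change 0.089). The share called was 12.5%, against 21.6% of all genes. The voltage-gated proton channel HVCN1 rose from 17.9 ± 2.66 to 23.5 ± 2.99 (adjusted p = 0.013) and CNGB1, a subunit of cyclic nucleotide-gated channels, from 0.834 ± 0.207 to 1.77 ± 0.661 (adjusted p = 0.014). CNGB1 was above 1 in every operated retina but in the control of embryo 5 only (1.13). It was thus listed through its operated values, and its call is not independent of that. TRPM3, known from pigment epithelium and sensory neurons, fell from 103 ± 19.8 to 83.8 ± 17.5 (adjusted p = 0.0085). Whether its fall goes with that of the pigment markers was not tested. Among 12 ion pump and exchanger genes 3 rose, 1 fell and 8 did not pass (median log2 change 0.11), a share called of 33.3%. The chloride importer SLC12A2 fell from 114 ± 42.9 to 67.7 ± 14.01 (adjusted p = 0.0027), and the potassium and chloride exporters SLC12A7 and SLC12A4 rose from 39.3 ± 2.65 to 46.4 ± 3.77 and from 179.5 ± 1.84 to 202 ± 7.52 (adjusted p = 0.046 and 0.046). The calcium pump gene ATP2B1 rose from 129.5 ± 7.72 to 147 ± 2.95 (adjusted p = 0.048).

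The number of channel genes listed differed by family. RefSeq has 114 symbols for the chicken that the rule takes, of which 70 had values here; KCNK1 was matched to none, and the other 44 were not analysed here. All 2 Kv beta, 3 Kv3, 2 Kv4, 4 KChIP, 3 SK, 4 alpha 2 delta and 3 beta genes were listed. So were 7 of 8 calcium pores, 6 of 7 EAG, ERG and ELK genes, 5 of 7 Kv1 genes and 4 of 5 Kv7 genes. Of the inward rectifiers 4 of 12 were listed, of the sodium pores 4 of 8 and of the BK subunits 1 of 4. The 5 leak channels listed include KCNK1, which is not among the 13 RefSeq symbols of that family. Also listed were 2 of 2 Kv2, 4 of 5 gamma, 6 of 10 silent Kv and 1 of 3 sodium-activated and Slo3 genes. Of 5 KCNE subunit genes and 3 sodium channel beta genes 0 were listed. A gene not listed was not shown to be unexpressed, since listing needs a matching symbol and 1202 listed genes had LOC symbols. Of the 71 genes 59 were above 1 in 10 of 10 libraries. The least read value, CACNA1S in the operated retina of embryo 5, rested on 9 reads. The counts are not per transcript length, so they do not rank the genes by transcript level.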

How the data were processed

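Retinas of 5 chicken embryos were profiled by polyadenylated RNA sequencing, 1 operated and 1 control library per embryo, and all 10 libraries carry batch number 128, per the labels. The deposited values are normalised read counts, a signal scaled by the authors to nearly equal totals. How they scaled, which annotation they used and whether strand was counted is not given in the sources used here, so reads from overlapping antisense genes cannot be told apart. The submitters' processing notes name the build GRCg6a, the aligner HISAT2 2.1.0, FastQC 0.11.8 and Trim Galore 0.6.4, with Subread 1.6.2, featureCounts and SAMtools 1.9. Every gene in the table exceeds 1 in at least 5 libraries.

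The worth of 1 read was 0.0385 to 0.0536 units, from the spacing of low values; 89.9% to 91.7% of the values at or under 400 reads were multiples of it within 0.02 reads, too few for a count model. Differences were therefore tested with limma 3.58.1 (R 4.3.3) on log2(value + 1), two-sided, with an intensity trend and the embryo as a block, over all 12464 genes with no filter on low values. P-values were adjusted by Benjamini and Hochberg, with a threshold of 0.05. The block follows from the titles, which number the embryo; deviations of both eyes of an embryo correlated at 0.31, 0.76, 0.45, 0.68 and 0.59 in embryos 1 to 5. Python 3.11.15, pandas 2.3.3, numpy 2.4.6, scipy 1.17.1 and matplotlib 3.10.9 served for summaries and figures.

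The members and lists were chosen with earlier results of these data known. Named by rule were up to 15 higher and 15 lower passing genes in order of p, the gene of highest mean in each family and 14 genes picked in advance; the other members are given so that each is accounted for, but for 3 that are counted and tested with the rest and not reported singly here. Of each partner list up to 4 passing genes in order of p are named; REST was added after its values were seen. The alternatives were pseudocounts of 0.25 and 5, filters at means of 10 and 50, trimmed-mean rescaling, quantile normalisation, no replicate block, a robust prior, no trend and leaving out each embryo. RefSeq names come from GRCg7b, a build other than the files', so no coordinates are given, and sequences were not used here.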

Additional observations from a re-analysis of the deposited data

Results flagged for a closer look

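In 3 of 78 groups of 5 libraries, over 39 named channel genes, 1 library stood apart from the other 4 by Dixon's criterion, and chance alone marks about 1 group in 20. KCNA3 in the operated retina of embryo 1 was at 7.45, below the other operated values of 10.4 to 11.5. KCNMA1 in the same library was at 24.1, against 27.6 to 28.2 in the other operated retinas. KCNN3 in the control retina of embryo 5 was at 11.6, above the other controls of 5.21 to 7.05.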

How the results depend on the processing

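Over the 14 alternatives the direction of each of the 21 called channel genes stayed as reported wherever it was tested. The counts moved more. Filtered at a mean of 10, 23 channel genes were tested and 6 were higher and 2 lower, the same 8 as without the filter; filtered at a mean of 50, 3 were tested and 0 were higher and 0 lower (412 and 814 of all genes). Quantile normalisation gave 11 higher and 6 lower (1156 and 1347 of all genes). With no replicate block 14 were higher and 2 lower (996 and 853 of all genes). Leaving out 1 embryo gave 6 to 19 higher and 0 to 3 lower channel genes, and 635 to 1932 higher and 393 to 1660 lower among all genes, with the fewest calls without embryo 4 and without embryo 2. Their cause was not tested. Over the 39 genes named by rule, the log2 changes that changed sign belonged to genes that did not pass: KCNG3 (-0.0904) and SCN2A (-0.0169) under quantile normalisation, and, leaving out 1 embryo, CACNA1C (-0.285 to 0.0276), KCNG3 (-0.0548 to 0.104), KCNH5 (-0.0102 to 0.147), KCNN1 (-0.0356 to 0.121) and SCN3A (-0.130 to 0.125). Of the other channel genes, 6 that did not pass had log2 changes on both sides of 0 over the alternatives: KCNA1 (-0.137 to 0.0600), KCNA5 (-0.0604 to 0.0768), KCNA6 (-0.0263 to 0.115), KCNG4 (-0.168 to 0.0622), KCNH7 (-0.136 to 0.0142) and KCNJ8 (-0.0527 to 0.181). The median change of the channel genes tested ranged from 0.049 to 0.16.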

Other observations

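In the unoperated retinas alone, channel genes differed in how even they were between embryos. The spread was small for KCNN2 (SD 5.57% of the mean), CACNG4 (5.60%) and KCNK5 (7.04%), and large for CACNA2D4 (51.3%), KCND3 (45.3%), KCNH6 (41.9%), KCNG4 (40.7%) and CACNA1C (40.6%). The fewest reads in any of the 10 libraries were 100, 292 and 113 for KCNN2, CACNG4 and KCNK5. For KCND3 and KCNH6 they were 12 and 20. The part of read sampling in these spreads was not tested. KCNG4 was at 0.971, 2.92, 3.15, 2.02 and 1.804 in the control retinas of embryos 1 to 5.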
